A study of Mus musculus with 8 samples.

Results

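The regions described here are the 4386 stretches of open chromatin that were called in ILC2s with active E47 after 4 h and in none of the 3 other peak lists of the study. Overlapping peaks were merged within each list, regions of different lists that overlapped by 1 bp or more were linked into union regions, and those with a call in the E47 4 h list alone were kept. They made up 4386 of 60835 union regions (7.21%) and 8.81% of the 49811 regions of the E47 4 h list (95% exact interval 8.56% to 9.06%). They were chosen by the presence and absence of calls in these lists, so their count and their strength are given as descriptions with no test.

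Open chromatin was mapped by ATAC-seq, in which the Tn5 transposase cuts accessible DNA, in thymic ILC2s (group 2 innate lymphoid cells) of plck-Id1 mice of the C57BL/6 strain. All groups carried the Id1 transgene, named for the proximal Lck promoter, which is active in developing T cells; Id1 binds E proteins and stops them from binding DNA. The cells were transduced with a MIGR1 retrovirus for GFP together with E47-ER, or for GFP alone, sorted for GFP, expanded with IL-7, IL-25 and IL-33 and given 4-hydroxytamoxifen, also in the GFP cells. The groups were E47 at 4 h, E47 at 16 h, GFP at 4 h and GFP at 16 h, with 2 samples each and 1 deposited peak list per group, and no untreated cells were used here. Because each list pools its samples, the spread between replicates cannot be given, and the intervals below cover counting error only. In the free-text descriptions the vector follows the replicate number in every group, against the titles and the transduction labels, which were used.

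E47 is a product of the Tcf3 gene and a member of the E proteins, helix-loop-helix factors that bind E-boxes, short DNA sites of the form CANNTG, and that direct early T and B cell development. Id proteins pair with E proteins and keep them off DNA, and innate lymphoid cells need Id2, a relative of Id1, to develop. In E47-ER, E47 is joined to the hormone-binding part of the estrogen receptor, so that tamoxifen lets the protein act within hours. A region called at 4 h and in no other list is a candidate for brief opening after E47 activation, but a call also depends on the depth of a library and on how well its replicates matched.

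The E47 4 h list had 49811 regions over 24.4 Mb, the E47 16 h list 40649 over 20.6 Mb, the GFP 4 h list 42665 over 21.2 Mb and the GFP 16 h list 52846 over 24.9 Mb. The number of reads behind them is not given in the sources used here. In the E47 4 h list, 7 of 10 ILC2 markers had a region within 1 kb of a gene end, and Gata3, Rora and Icos had regions further off. Such regions were present at 3 of 6 T cell markers, 2 of 4 myeloid markers and 1 of 4 NK and ILC1 markers, and at none of 4 B cell, 3 ILC3 and 3 mast cell and basophil markers. A change in the mix of cells and a change within each cell cannot be told apart in such bulk samples.

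Of 80 regions with their summit inside the promoter window of a protein-coding gene, 28 (35%) had an E-box of the E47 type in both region and window. This count is not given for other classes of region, so the 35% has no background beside it. The promoters below are those of the 5 strongest of these 28. They were picked for the E-box and do not stand for the DNA under the other regions. Each is the RefSeq window of 300 bases on build GRCm38.p6 (mm10), from 250 before to 50 after the gene's start, written 5′ to 3′ on the gene's strand, with CAGCTG and CACCTG in capitals. The windows are chr3:103913870-103914169 (+) for Rsbn1, chr6:59024453-59024752 (−) for Fam13a, chr5:35041259-35041558 (+) for Hgfac, chr3:89245848-89246147 (−) for Trim46 and chr10:6980416-6980715 (−) for Ipcef1.
Rsbn1: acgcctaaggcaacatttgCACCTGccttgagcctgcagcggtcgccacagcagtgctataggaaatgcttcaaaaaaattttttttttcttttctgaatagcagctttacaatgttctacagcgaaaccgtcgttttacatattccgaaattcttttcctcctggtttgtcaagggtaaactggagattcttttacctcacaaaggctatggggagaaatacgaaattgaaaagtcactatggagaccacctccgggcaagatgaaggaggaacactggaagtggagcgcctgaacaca
Fam13a: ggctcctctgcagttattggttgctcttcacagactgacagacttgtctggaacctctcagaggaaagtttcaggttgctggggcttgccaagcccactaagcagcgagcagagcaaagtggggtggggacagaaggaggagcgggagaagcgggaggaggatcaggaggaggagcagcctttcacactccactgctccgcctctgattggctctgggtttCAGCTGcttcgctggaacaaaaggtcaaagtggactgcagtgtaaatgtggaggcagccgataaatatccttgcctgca
Hgfac: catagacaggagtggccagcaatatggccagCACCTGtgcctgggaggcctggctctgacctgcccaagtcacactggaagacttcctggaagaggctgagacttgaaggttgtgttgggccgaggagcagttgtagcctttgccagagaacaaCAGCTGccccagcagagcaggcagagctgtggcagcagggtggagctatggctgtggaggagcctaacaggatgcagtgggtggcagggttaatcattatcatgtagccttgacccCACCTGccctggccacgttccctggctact
Trim46: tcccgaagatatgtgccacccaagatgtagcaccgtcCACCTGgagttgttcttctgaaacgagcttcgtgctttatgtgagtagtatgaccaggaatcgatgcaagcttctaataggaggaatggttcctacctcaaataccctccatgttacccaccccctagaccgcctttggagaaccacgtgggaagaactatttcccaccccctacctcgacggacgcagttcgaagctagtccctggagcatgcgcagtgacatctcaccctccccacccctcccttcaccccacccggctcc
Ipcef1: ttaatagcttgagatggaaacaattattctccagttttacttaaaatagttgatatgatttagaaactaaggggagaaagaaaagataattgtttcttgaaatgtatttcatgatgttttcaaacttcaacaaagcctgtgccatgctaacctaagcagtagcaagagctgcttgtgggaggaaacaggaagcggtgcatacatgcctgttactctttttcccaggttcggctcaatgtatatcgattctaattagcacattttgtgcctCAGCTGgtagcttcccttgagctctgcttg

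These promoter regions differed in how they sat among other calls. The region at Fam13a covered its whole window, had its summit 66 bases before the start and a fold enrichment of 8.86 over local background, and lay 4102 bp from the next region of any list. At Hgfac, which encodes an activator of hepatocyte growth factor, the window held 3 such E-boxes, all within the called region, whose fold was 4.91 and which lay 968 bp from the next. The region at Ipcef1 had a fold of 7.47 with its summit 69 bases before the start, and the next region lay 2052 bp away. At Rsbn1 and Trim46 the called region lay only 136 bp and 53 bp from another region, and its summit was 223 bases before the start in both. The regions at Fam13a, Hgfac and Ipcef1 were thus further from other calls, while those at Rsbn1 and Trim46 lay at the flank of another call.

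Few of the regions called only in E47 at 4 h lay at promoters at all. They overlapped 188 of 32851 RefSeq promoter windows (0.572%), and 168 regions did so (3.83% of them). The share was 4.32% for regions called in E47 at 16 h only, 3.45% in GFP at 4 h only and 2.63% in GFP at 16 h only. It was 31.3% for regions of all 4 lists, so the low share was common to single-list regions. The windows lacked some genes, so all these shares may be too low. Of the 168 regions, 128 were at windows of protein-coding genes, and 80 of the 128 had their summit inside the window. Another region lay within 200 bp for 51 of the 128, and none lay within 1 kb for 61. CAGCTG or CACCTG, read on both strands, was present in 39.3% of 168 windows (66; each region was given the window it overlapped most; 95% interval 31.9% to 47.1%). The same letters were present in 42.4% of 59 windows under regions called in E47 at 16 h only, 40.4% of 47 under regions called in GFP at 4 h only, 27.8% of 169 under regions called in GFP at 16 h only, 28.4% under regions of all 4 lists and 32.9% of all windows. The interval of 31.9% to 47.1% thus included the shares for E47 at 16 h only, GFP at 4 h only and all windows. The shares for GFP at 16 h only and for all 4 lists lay below it. The 2 GFP classes, both from cells without E47-ER, had intervals of 26.4% to 55.7% at 4 h and 21.2% to 35.2% at 16 h. The AP-1 letters TGACTCA were in 2.38% of the windows (0.652% to 5.98%), beside 5.20% of all windows and 3.62% of those under regions of all 4 lists, both inside that interval. They were in 0% of the windows under regions called in E47 at 16 h only, 12.8% (4.83% to 25.7%) in GFP at 4 h only and 9.47% (5.51% to 14.9%) in GFP at 16 h only. A match of letters is not a binding site, and no genome was at hand to search the regions away from promoters.

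The regions were short and weak. Their median width was 198 bp, with the middle 50% between 154 and 303 bp, and 63.1% had 1 summit. Strength is given as a percentile: regions of the E47 4 h list were ranked by the highest −log10 p that the authors' list gives for any of their peaks. The median percentile was 9.38, with the middle 50% between 4.12 and 17.5 and a highest value of 57.8. The median fold was 5.34, and the range was 1.45 to 13.1. Regions called in all 4 lists had a median percentile of 73.4, a median fold of 13.1 and a median width of 678 bp. These values, like their scores, belong to the linked region: its span over the lists and its strongest list. Taking the strongest of 4 lists raises them by construction. The capped score of 1000 was reached by 5.24% of regions called only in E47 at 4 h, against 94.95% of regions of all 4 lists.

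**Figure D1:**
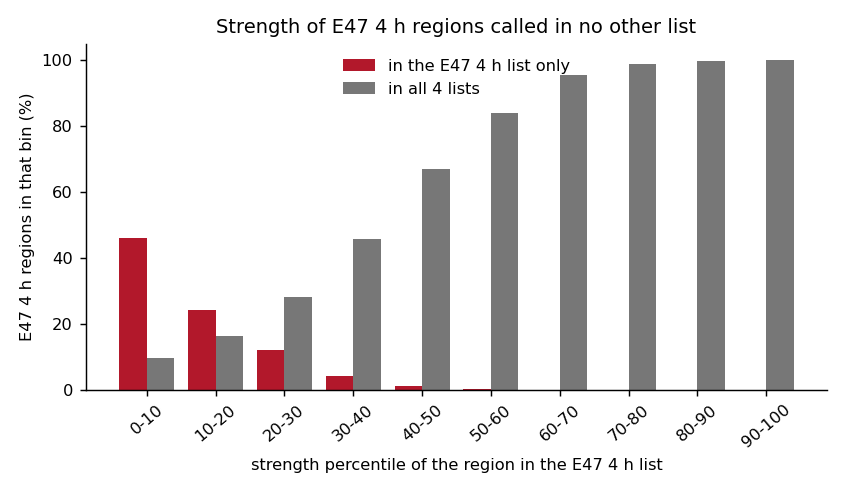
Share of the regions of the E47 4 h list, in bins of 10 strength percentiles (horizontal axis), that were called in no other list (red bars) or in all 4 lists (grey bars), in percent. Regions called only in E47 at 4 h were 46.2% of the weakest bin and 1.02% of the bin from 40 to 50, and none lay above percentile 60.

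Regions found in a single list were weak in every list. The median strength percentile, each in its own list, was 7.37 for regions called in E47 at 16 h only. It was 6.71 for those of GFP at 4 h only and 11.9 for those of GFP at 16 h only, so that the E47 4 h regions lay between them. Of the 4386 regions, 2085 were above percentile 10, 522 above 25 and 6 above 50. Many carried identical values: 1711 (39.0%) shared both fold and −log10 p with another of them, and the commonest pair, a fold of 6.15 and a −log10 p of 19.8, was held by 107. Among E47 4 h regions of all 4 lists the share was 11.7%. The values of the regions thus come in coarse steps, and small differences in rank between them cannot be read.

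The number of regions also depended on the length of the lists. The other lists held 1388 regions of their own in E47 at 16 h (2.28% of union regions), 1362 in GFP at 4 h (2.24%) and 6455 in GFP at 16 h (10.6%), and the 2 longer lists thus had the more single-list regions. When all lists were shortened to their 40649 strongest regions, the E47 4 h list had 1726 single-list regions. The E47 16 h list had 2968, the GFP 4 h list 2110 and the GFP 16 h list 2077. The count for E47 at 4 h was then the lowest of the 4, and 1015 of the reported regions were still in it (23.1%). No excess of regions in E47 at 4 h over the other lists was left at equal length. However, shortening takes away the weakest regions first, where most of the reported regions lay, so their loss followed by construction. The E47 16 h list already had that length and lost no region. The counts at equal length thus cannot tell whether E47 at 4 h had an excess of its own.

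At the edge of the rule, the closest gaps were 1 bp at a region near Ralgps2, 3 bp in 1700012B09Rik and 7 bp in Aldh1l1, and these regions had strength percentiles of 15.2, 0.100 and 0.502. Just outside it were regions that overlapped another list by 3 bp in 1500009L16Rik, 5 bp near Egfl6 and 7 bp in A930018P22Rik, with percentiles of 0.177, 0.0130 and 0.171. Gaps of at most 10 bp to another list were found at 4 regions and gaps of at most 50 bp at 107. A region of another list lay within 200 bp of 1009 regions (23.0%), and none lay within 1 kb of 2691 (61.4%).

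Most of the regions lay away from gene ends. Their summits were less than 1 kb from a protein-coding gene's end in 14.2% (95% interval 13.2% to 15.3%), inside a gene but further from its ends in 49.9%, and outside genes in 35.9%. The share at gene ends was 36.8% among regions of all 4 lists. The median distance to the nearest transcription start was 25481 bp, against 13378 bp for regions of all 4 lists. The starts used lacked those of some genes, Myc and Tg among them, so both medians may be too long. The difference at gene ends was also present within bins of strength of the E47 4 h list. Below percentile 10, 14.6% of the regions called there alone (13.1% to 16.1%) were at gene ends. The share was 37.1% (32.8% to 41.7%) for those of all 4 lists. For these the position was the strongest summit of the linked region in any list, so the bins do not compare summits of like strength. Between percentiles 20 and 30 the shares were 15.02% (12.3% to 18.1%) and 22.1% (19.9% to 24.3%). The share was 14.9% for regions called in E47 at 16 h only, 12.04% in GFP at 4 h only and 9.98% in GFP at 16 h only, so the position away from gene ends was shared by the single-list regions of all 4 lists.

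This share mixed regions beside other calls with regions standing apart. Another region of any list lay within 200 bp of 1115 regions (25.4%), at a median gap of 73 bp. For 716 of the 1115 (64.2%) that nearest region was called in all 4 lists. For 1012 (90.8%) it was called in E47 at 4 h, either there alone or in other lists too. The 1115 are called flanking regions here. Of these flanking regions 30.9% (28.2% to 33.7%) were at gene ends. Of the 2589 with no other region within 1 kb, 7.38% (6.40% to 8.45%) were at gene ends, against 35.8% of regions of all 4 lists that stood equally apart.

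**Figure D2:**
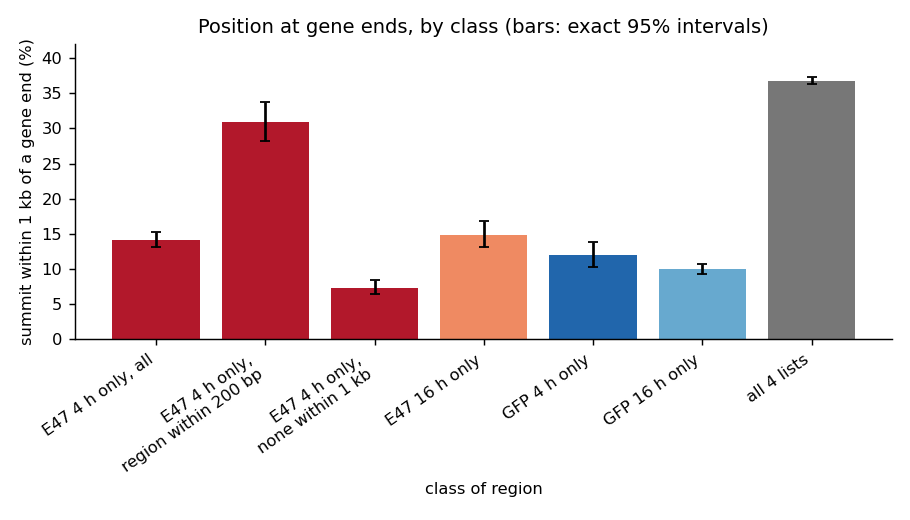
Share of regions, in percent, with a summit less than 1 kb from a protein-coding gene's end, by class of region; error bars are exact 95% binomial intervals. Flanking regions called only in E47 at 4 h reached 30.9% and those standing apart 7.38%, around the 14.2% of the whole set and below the 36.8% of regions in all 4 lists.

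Within 20 kb, regions called only in E47 at 4 h had a region of both E47 lists beside them more often than a region of both GFP lists, but not clearly so within 50 kb. A region called in both E47 lists and neither GFP list lay within 20 kb of 11.8% of them (10.9% to 12.8%), and a region called in both GFP lists and neither E47 list lay within 20 kb of 9.28% (8.44% to 10.2%), although the union held fewer of the first kind, 2088 (3.43% of union regions) against 2776 (4.56%). The shares were 14.6% and 9.94% for regions called in E47 at 16 h only. They were 7.64% and 14.1% for GFP at 4 h only, and 8.51% and 13.4% for GFP at 16 h only. A region of all 4 lists lay within 20 kb of 71.2% of regions called only in E47 at 4 h, and of 70.2%, 69.4% and 66.7% of the other single-list classes in the same order. Within 50 kb the shares for regions called only in E47 at 4 h were 22.3% (21.1% to 23.5%) and 21.3% (20.1% to 22.6%), and their intervals overlapped, while within 5 kb they were 4.49% (3.90% to 5.15%) and 2.96% (2.48% to 3.51%). The order also depended on list length. With all lists at equal length the shares for E47 at 4 h were 13.4% and 8.57%, but with the E47 4 h list alone shortened to the length of the GFP 4 h list they turned round, to 9.62% and 11.5%. In that setting the union held 1592 regions of both E47 lists only and 3648 of both GFP lists only.

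**Figure D3:**
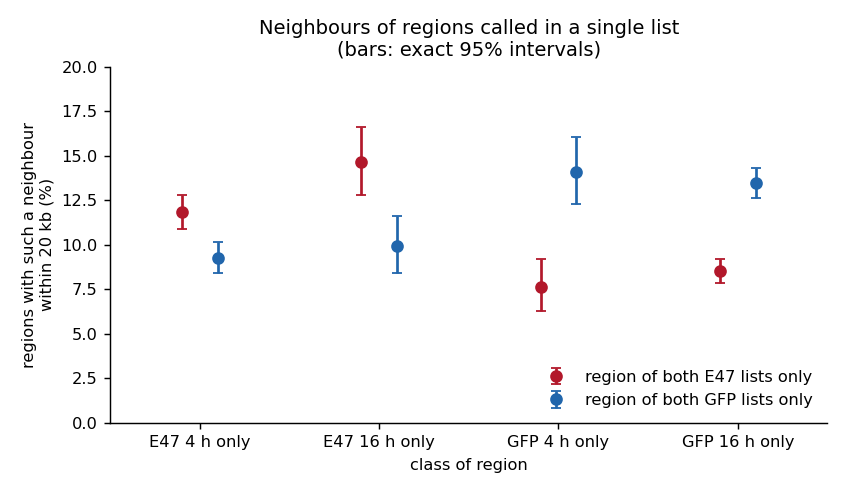
Share of the regions called in a single list, in percent, that had a region of both E47 lists only (red) or of both GFP lists only (blue) within 20 kb; error bars are exact 95% binomial intervals. The shares were 11.8% and 9.28% of regions called only in E47 at 4 h, against 7.64% and 14.1% of those called only in GFP at 4 h.

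The strongest of the regions, those above percentile 47, were spread over unrelated genes. The first was 1200 bp from Camk1g, a calcium- and calmodulin-dependent kinase, at chr1:193345059-193345284 (mm10), with a percentile of 57.8 and a fold of 10.8. Regions inside Wdr95 (percentile 55.8), Tnik, a kinase of the Wnt pathway (55.04), and Cdk19, a kinase of the Mediator complex (50.8), had folds of 13.1, 10.7 and 11.8. The others were near or in Ccdc171, Galm, Zeb2, Slco3a1, Rab3d and Zfp608, with percentiles of 47.7 to 53.2. Zeb2 is a repressor with zinc fingers that binds E-box sites, and its region had a fold of 7.11. The region named for Zfp608 lay 474509 bp from it. At gene ends the strongest regions were those of Susd2 (percentile 43.6), Ppp3ca, a catalytic subunit of calcineurin (42.3), and Cdh5, the endothelial cadherin (40.9).

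By nearest gene within 100 kb, 4182 of the regions fell to 3278 of the 14996 genes with any union region (21.9%). Most of these genes, 2624, had 1 such region, 483 had 2 and 171 had 3 or more. The highest number was 6, reached by genes with many regions in all: Slc9a9 had 6 of 30, Thada 6 of 19, Tg 6 of 23, Zmiz1 6 of 48, Akap13 6 of 58 and Rapgef2 6 of 39. Slc9a9 is an exchanger of sodium and protons, Tg is thyroglobulin, and Rapgef2 encodes an activator of Rap proteins. Of the 14996 genes, 249 were the nearest gene to no other region of any list, and 230 of the 249 had a single region. Regions close to these genes but closer to another gene are not counted here. They included Klrb1a, a lectin receptor of the NK gene complex (percentile 45.05), and Tlr7, a receptor for RNA in endosomes, with 2 regions. A gene name is here a label of position, not a target.

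Vav3 and Ramp1 had the highest shares among genes with 8 or more regions. Vav3, an exchange factor that activates Rac, had 5 of its 8 regions called only in E47 at 4 h. They lay 53.7 kb before the gene and 1.39, 104, 114 and 127 kb inside it, with folds of 6.96, 4.74, 5.66, 6.96 and 7.28. Their strength percentiles were 16.5, 12.5, 4.76, 16.5 and 19.5, and the promoter region of Vav3, called in all 4 lists, had percentiles of 72.5 and 60.7 in the E47 lists at 4 and 16 h and 67.4 and 71.2 in the GFP lists. Apart from the one at 1.39 kb, 220 bp from its neighbour, these regions were more than 10 kb from any other call.

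Ramp1, which forms with Calcrl the receptor for CGRP, a neuropeptide to which ILC2s respond, had 5 of 10. Its 5 regions lay 1.76 to 40.1 kb from the gene's lower end, had folds of 3.30 to 4.47 and percentiles of 2.08 to 11.4, and were thus among the weaker calls of the list. Between them lay a region of all 4 lists with percentiles of 81.6 and 77.9 in the E47 lists at 4 and 16 h and 70.4 and 73.6 in the GFP lists.

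**Figure D4:**
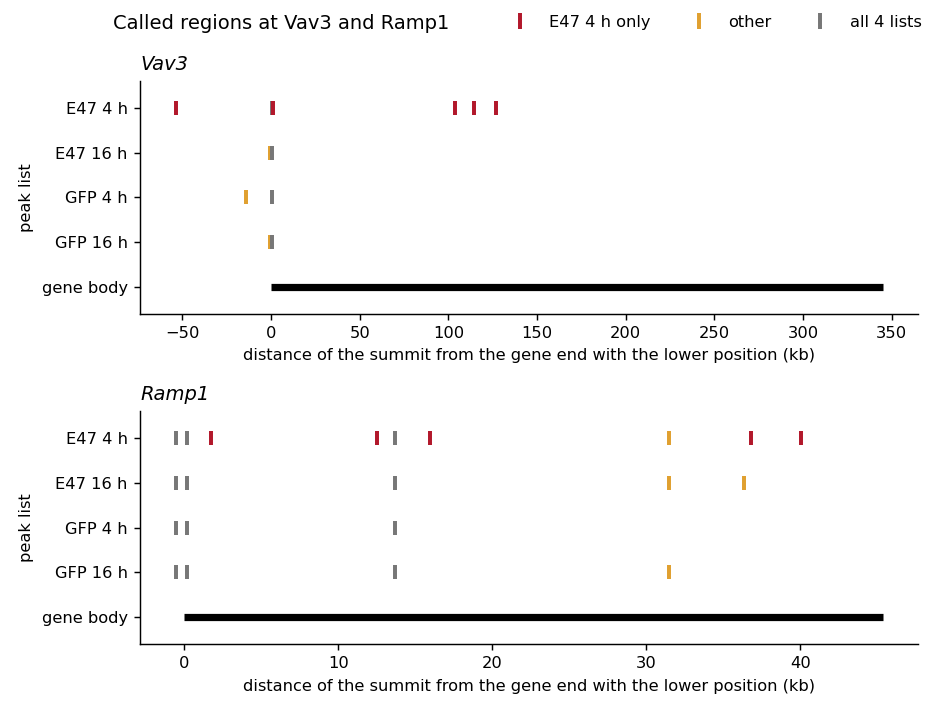
Called regions at Vav3 (top) and Ramp1 (bottom) in each peak list, by distance of the summit from the gene end with the lower position, in kb; red marks are regions called only in E47 at 4 h, grey marks regions of all 4 lists, orange marks other regions, and the black bar is the gene. Red marks are 5 of 8 regions at Vav3 and 5 of 10 at Ramp1; at Vav3 the red mark at 1.39 kb touches the grey promoter mark.

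Regions in short succession were few. With gaps of up to 20 kb, 980 of the regions formed 453 runs of 2 or more, and 3406 stood alone. The longest run had 5 regions over 40548 bp in Gsn, the gene of gelsolin, which severs actin filaments, and the strongest of them was at percentile 10.8. Of the 7 runs of 4 or more, the shortest were those of 4 in 12051 bp at Ubac2 and Gpr183, an oxysterol receptor that guides lymphocyte migration, and in 13966 bp of Lcp1, the gene of the actin-bundling protein L-plastin. Myc had 3 regions within 2323 bp, at percentiles of 22.0, 20.7 and 0.849, at 55, 395 and 64 bp from the next region.

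The 17 gene lists had shares of 4.30% to 15% of their regions called only in E47 at 4 h, beside 7.21% of all union regions. The lowest was that of E proteins, Id proteins and partners, with 4 of 93 regions. Tcf3, Tcf4, Tcf12, Id1, Id2 and Id3 were the nearest gene within 100 kb to none of them. A region close to one of these genes but closer to another gene is counted with the other. Beyond that limit, 4 regions called only in E47 at 4 h formed a run over 39555 bp to which Id2 was the nearest gene, and the strongest of them was at percentile 28.4. Genes known as E protein targets had 16 of 277 (5.78%; 3.34% to 9.21%), among them 3 of 27 at Ets1 and 3 of 19 at Bcl11b, factors of early lymphocyte and T cell development. In that list Tcf7, which acts in early T cells and innate precursors, had none of 9. The list of E protein targets was thus not above the background share.

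ILC2 identity and effector genes had 28 of 314 regions (8.92%; 6.01% to 12.6%). Gata3, the main factor of ILC2s, had 3 of 16, at percentiles of 26.5, 7.10 and 3.16, and 2 of these lay in the gene. Il5, Il1rl1, which encodes the receptor for IL-33, and Klrg1 had 1 each of 6, 11 and 14. Il13 and Areg, effector genes of ILC2s, had none of 6 each.

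Regulators of innate lymphoid precursors had 25 of 220 (11.4%; 7.49% to 16.3%), spread over 11 of 16 genes. Of all genes with a union region 21.9% had one, but a gene with more regions has more occasions for one. Tox2 had 3 of 16 with a strongest percentile of 29.0, Runx1 had 3 of 34, and Nfil3, which is needed for innate precursors, had 3 of 12. T cell and T cell receptor genes had 18 of 154 (11.7%; 7.08% to 17.8%), with 3 of 8 at Cd2, an adhesion receptor of T and NK cells. Both shares of regions were above the 7.21% of all union regions, but the interval for T cell genes included it, and 17 lists were looked at. Regions called in E47 at 16 h only, GFP at 4 h only and GFP at 16 h only were 2.28%, 2.24% and 10.6% of union regions. They were 11, 5 and 25 of the 220 precursor regions and 6, 3 and 11 of the 154 T cell regions. A raised share was thus also present for E47 at 16 h only and was not particular to 4 h. At equal list length the 2 lists held 9 and 4 such regions, with 1726 in all. Bcl11b and Gata3 stand on more than 1 list, so these counts share regions.

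Receptor and signalling genes were closer to the background. Cytokine receptor and JAK-STAT genes had 18 of 289 (6.23%), with 4 of 31 at Tgfbr2, a receptor of TGF-beta, and 2 of 6 at Stat3, which transmits IL-6 and IL-23 signals. Of the Notch pathway genes 15 of 152 regions counted (9.87%), with 4 of 23 at Rbpj, the DNA-binding partner of Notch. Calcium and small GTPase signalling genes had 43 of 499 (8.62%), with 4 of 31 at Ppp3ca and 4 of 48 at Elmo1, a partner of Dock proteins in Rac activation. Cell cycle and survival genes had 20 of 247 (8.10%), with 4 of 14 at Ccnd2, which encodes cyclin D2. Repressor and AP-1 family genes had 25 of 357 (7.003%), with 3 of 11 at Ikzf3, the gene of Aiolos, and TGF-beta pathway genes had 11 of 157 (7.01%).

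Genes of other cell types did not stand apart from these. ILC3 and Th17 genes had 8 of 89 (8.99%), among them a region 5204 bp from Il17a with a fold of 8.41 and a percentile of 29.6, and NK, ILC1 and cytotoxic genes had 7 of 78 (8.97%). A region of this last list lay 453 bp from Eomes, the factor of NK cells, and it was the only region at an end of an NK or ILC1 marker in any list. B cell genes had 3 of 20 (15%; 3.21% to 37.9%), myeloid and dendritic cell genes 4 of 59 (6.78%), mast cell and basophil genes 2 of 29 (6.90%) and housekeeping genes 5 of 67 (7.46%). Whether other cells in the cultures gave rise to any of the regions was not tested.

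**Figure D5:**
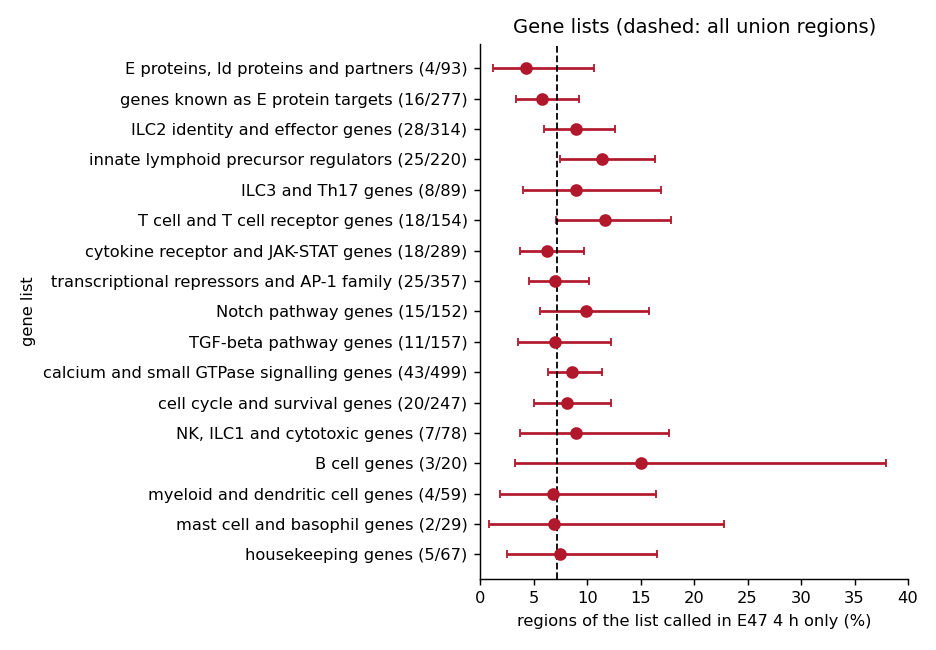
Share of the union regions of each gene list, in percent, that were called only in E47 at 4 h, with exact 95% binomial intervals and the counts in parentheses; the dashed line is the 7.21% of all union regions. Shares ran from 4.30% for E proteins and their partners to 15% for B cell genes, and the interval of the innate lymphoid precursor regulators, 7.49% to 16.3%, lay above the line.

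Of 1005 annotated miRNA hairpins, 50 (4.98%) lay within 5 kb of a region called only in E47 at 4 h, and 432 lay within 5 kb of any union region. Among those noticed after their values were seen was Mir17, a hairpin of a cluster known to drive lymphocyte growth, 1930 bp from a region at percentile 18.4 with a fold of 2.60. Over autosomes and chromosome X the share of union regions called only in E47 at 4 h ran from 6.10% on chromosome 18 to 7.92% on chromosome 2.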

How the data were processed

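ATAC-seq peaks of 8 samples in 4 groups of 2 were used, with groups from the sample titles; no label tells if a group's samples were separate cultures or animals. The tools named per the submitters' processing notes are Bowtie2, cutadapt, DiffBind and MACS2, on build mm10, with no version, setting or role. The deposited files hold 1 list per group, which per the labels is the conservative set of the irreproducible discovery rate method. Each deposited line gives a score capped at 1000, a fold (the authors' ratio to local background) and a −log10 p from the authors' peak caller. These values belong to their own list and were used only to rank, filter and describe its regions. Every deposited −log10 p was at least 2.00, and no read depth is given, so longer lists may reflect depth or agreement of replicates.

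Overlapping lines were merged and regions overlapping by 1 bp or more were linked. A region's strength is the percentile of its highest −log10 p and its fold the highest of its peaks. Genes were the 21900 protein-coding genes of a RefSeq table of GRCm38.p6, the assembly of mm10; each summit was given the nearest gene body up to 100 kb away. Promoter windows and hairpins came from RefSeq tables of that assembly. Transcription starts were taken from the promoter windows, which lacked some genes. The members and gene lists were chosen with earlier results of these data known. Genes named were the 10 strongest regions, the 10 genes with most regions, up to 3 genes per list, the 5 strongest regions at gene ends and the 5 densest runs. Vav3 and Ramp1 as loci, the promoters and Tcf3, Tcf4, Tcf12, Id1, Id2, Id3, Tcf7, Il5, Il1rl1, Klrg1, Il13, Areg, Nfil3, Klrb1a, Tlr7 and Mir17 were chosen after their values were seen. With 1 list per group no test was made; shares have exact (Clopper-Pearson) 95% intervals. On simulated data 1321 of 1321 such regions among 20000 were recovered. The simulated regions stood apart, without the close neighbours of the real lists, so this checks the code only. Alternatives are listed at the end. The code ran in Python 3.11.15 with numpy 2.4.6, pandas 2.3.3, matplotlib 3.10.9 and scipy 1.17.1.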

Additional observations from a re-analysis of the deposited data

How the results depend on the processing

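Of 65 values of 7 main results under the alternatives, 35 moved by less than their counting interval or, for counts, by less than 1.5 times. No paired analysis was possible because each peak list pools the samples of its group, and no replicate could be left out for the same reason. A planned search for E-boxes around summits was not run, since no genome was used; promoter windows took its place. That search of promoters, the shares within 20 kb and the set without flanking regions were chosen after seeing the data. The count of 4386 was 4427 with an overlap of 50% of the shorter region and 3379 with regions within 200 bp counted as the same, but 1726 with all lists at equal length, 1455 with the E47 4 h list at the length of the GFP 4 h list, 6 above the median strength and 11061 for single summits with none of another list within 150 bp. The median strength percentile of 9.38 became 25.4, 21.8, 54.1 and 18.5 in these last 4 settings. The share at gene ends of 14.2% was 8.64% with the 200 bp gap, 15.4% at equal length, 0% above the median, 17.2% for single summits, 8.50% without flanking regions, and 7.25% and 31.6% for gene ends within 500 and 5000 bp. The share with another region within 5 kb, 63.5%, was 52.7% with the 200 bp gap, 58.1% at equal length, 50% above the median, 51.1% without flanking regions, and 41.0% and 86.6% for neighbours within 1000 and 20000 bp. The share of promoter windows with CAGCTG or CACCTG rose to 48.8% with the E47 4 h list at the length of the GFP 4 h list. For regions of both E47 lists only within 20 kb, the share of 11.8% was 9.77% with the 200 bp gap, 13.4% at equal length, 9.62% at the GFP 4 h length, 16.7% above the median and 14.1% for single summits. For regions of both GFP lists only, 9.28% became 7.90%, 11.5% and 0% with the 200 bp gap, at the GFP 4 h length and above the median. The cause of these shifts was not tested beyond what shorter lists and fewer regions impose by construction. The number of such regions per gene list stayed within 1.5 times for 17 of 17 lists with the 50% overlap, 15 without flanking regions, 14 with genes within 20 kb, 8 with gene bodies and 5 kb to either side, and 3 at equal length, where 16 were lower.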
